A study of Sus scrofa with 4 samples.

Results

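The DLX, MSX and IRX homeobox factors of pig skin were examined in RNA sequencing of epidermal cells sorted by LGR5 reporter signal. The genes DLX2, DLX3, DLX5, MSX1, MSX2, IRX1, IRX2, IRX3, IRX4 and IRX5 were taken by gene name for their skin and hair roles. All 10 were found among the 29837 named genes of the count table, and all 10 passed the filter on low counts that left 15980 genes for testing. The cells came from the skin of 2 juvenile pigs, 88R and 95R, in which H2B-GFP, a green fluorescent protein joined to a histone, had been knocked into exon 1 of 1 LGR5 allele. The founders of this line were cloned from edited fetal fibroblasts by nuclear transfer, and the labels do not say whether these pigs were founders or offspring. Each pig gave 1 library of cells with high GFP (LGR5-high) and 1 of cells without GFP (LGR5-negative), so that both populations carried the same knock-in. GFP on a histone is lost by dilution as cells divide, so LGR5-negative is the absence of label and not of 1 defined cell type. The study also sorted cells of low GFP, which are in neither library. The comparison asked which of these factors differed between cells of high GFP and epidermal cells without the label. The study takes the cells of high GFP as follicle stem cells.

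Homeobox genes encode transcription factors that bind DNA through a homeodomain. The DLX genes lie in the genome as linked pairs, DLX1 with DLX2, DLX3 with DLX4 and DLX5 with DLX6, and like the MSX genes they are known to respond to BMP and WNT signals in skin appendages and teeth. DLX3 is known for its part in hair shaft and inner root sheath formation and in terminal differentiation of the epidermis, and MSX2 for hair shaft differentiation upstream of FOXN1. The Iroquois (IRX) genes encode homeodomains of the TALE class and lie in clusters of linked genes, with IRX1, IRX2 and IRX4 in one and IRX3, IRX5 and IRX6 in the other. They are known as patterning factors of heart, limb and nervous system.

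The libraries held between 30696803 and 32463362 counts on named genes, and 3 counts corresponded to between 0.0873 and 0.105 CPM (a count relative to the size of its library, with the library sizes adjusted by the trimmed mean of M-values, TMM). LGR5 itself had 4551 and 6224 counts in LGR5-high and 36 and 109 in LGR5-negative. Of the follicle markers LGR5, SOX9, LHX2, TBX1, TCF7L1 and NFATC1, 5 of 6 were higher in LGR5-high. LGR5 is 1 of the 5, and its rise follows from the sort by its reporter. For this and the next marker counts, 22.7% of all tested genes were higher and 22% lower. The epidermal keratin KRT5 was abundant in all 4 libraries, with at least 789559 counts. Of 6 epidermal keratinocyte genes tested none was higher and 3 were lower in LGR5-high, with a summed level of 37248 to 39908 CPM against 89555 to 101342 CPM. The 3 were the suprabasal genes KRT1 (log2 fold change -3.56), KRT10 (-3.44) and KRTDAP (-3.22), which were named after their values were seen, while KRT5 had -0.18 (adjusted p = 0.265). KRT15 had 0.76 (adjusted p = 0.187), and with the pig as a replicate block it was higher, at 0.73 (adjusted p = 2.13e-06). Markers of other cells moved with the populations. Of 5 immune genes tested, 5 were lower in LGR5-high, with a summed level of 10.4 to 12.1 CPM against 107 to 154 CPM. CD3E was not tested, with no count in LGR5-high and only 1 and 2 counts in LGR5-negative. Of 7 melanocyte genes 5 were lower (62.5 to 62.6 against 85.0 to 261 CPM), and of 6 endothelial genes 5 were lower (6.28 to 7.6 against 21.4 to 21.5 CPM). All 4 smooth muscle genes tested were higher (292 to 403 against 14.6 to 15.1 CPM), with DES at 0 to 2 counts in every library. Of 10 fibroblast and dermal papilla genes tested 4 were higher and 4 lower (1256 to 1502 against 374 to 680 CPM). SOX2 was not tested, with only 3 and 5 counts in LGR5-high and no count in LGR5-negative. Of 5 nerve and Schwann genes 2 were higher and 2 lower (62.0 to 81.4 against 17.7 to 25.2 CPM). The part of these cells in the results on the homeobox genes was not tested, and in sorted bulk RNA fewer cells of a type and less RNA per cell cannot be told apart.

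The DLX and the IRX family each held genes called in either direction. DLX2, MSX1, IRX2 and IRX4 were higher in LGR5-high, DLX3, DLX5 and IRX3 were lower, and MSX2, IRX1 and IRX5 were not called at an adjusted p-value under 0.05. By size the order ran from MSX1, 3.56-fold higher, and DLX2, 3.15-fold higher, to DLX5, 2.98-fold lower. Of the 10 genes 7 were called, beside 44.7% of all tested genes, with 4 higher (22.7% of all tested genes) and 3 lower (22% of all tested genes). The CPM of the populations did not overlap for 8 of the 10, beside 76.6% of all tested genes, with LGR5-high above in 5 (39.2% of all tested genes) and below in 3 (37.4%). The median log2 fold change was 0.24 over the 10 genes and 0.02 over all tested genes. Only CPM and differences of the same gene are compared here, since CPM is not scaled by transcript length.

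**Figure D1:**
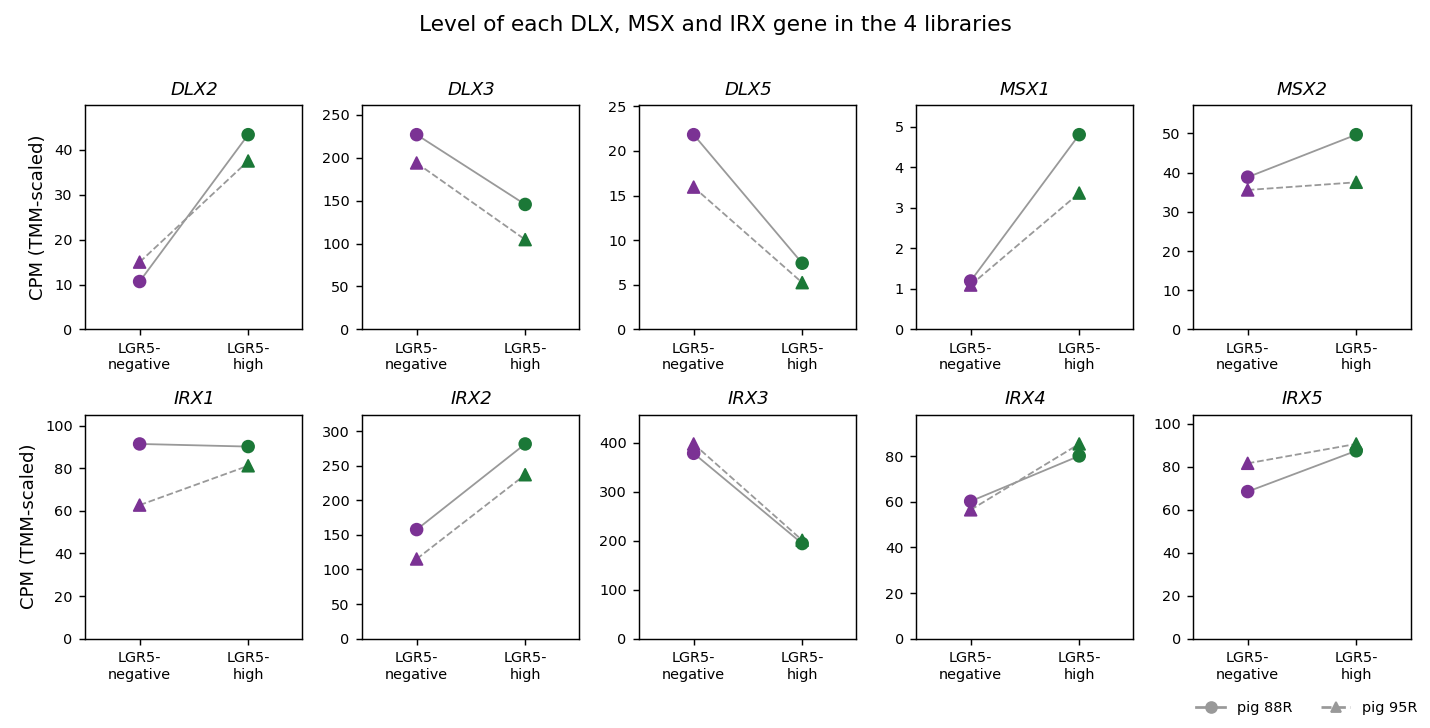
Level of each gene in CPM (TMM-scaled, linear axis from 0) in LGR5-negative (purple) and LGR5-high (green) cells, with circles and solid lines for pig 88R and triangles and dashed lines for pig 95R. The lines of DLX3, DLX5 and IRX3 slope down in both pigs, those of DLX2, MSX1, IRX2, IRX4, IRX5 and MSX2 slope up in both, and those of IRX1 go from 91.4 to 90.1 CPM in pig 88R and from 62.7 to 81.1 CPM in pig 95R.

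DLX2, known from forebrain and branchial arch development, had 43.4 CPM in pig 88R and 37.5 CPM in pig 95R in LGR5-high cells, and 10.7 and 14.99 CPM in LGR5-negative cells. Its lowest LGR5-high library lay well above its highest LGR5-negative library. The fitted log2 fold change was 1.66 (standard error, SE, 0.188; adjusted p = 0.00135), from 2.02 for pig 88R and 1.32 for pig 95R. Both sides added to the gap between the pigs, since pig 95R was higher by 0.49 on the log2 scale in LGR5-negative and lower by 0.21 in LGR5-high.

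DLX1, the partner next to DLX2 in the annotation and not one of the 10, differed by more than DLX2 did. It had 785 and 719 counts in LGR5-high and 44 and 53 counts in LGR5-negative, a log2 fold change of 3.75 (SE 0.162, adjusted p = 7.60e-05). The log2 ratio of DLX1 to DLX2 counts within a library was -0.93 and -0.79 in LGR5-high and -2.79 and -3.10 in LGR5-negative. Such a ratio uses no scaling between libraries, and only its difference between libraries is read, since raw counts grow with transcript length. It did not overlap between the populations. Both genes of this pair were thus higher in LGR5-high, by unequal amounts.

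DLX3 had 227 and 194 CPM in LGR5-negative cells of pigs 88R and 95R, and 146 and 105 CPM in LGR5-high cells. The populations did not overlap, and pig 95R was the lower pig in both. On the log2 scale DLX3 fell, at -0.75 (SE 0.172, adjusted p = 0.0165), with -0.64 and -0.89 in the 2 pigs. Without the LGR5-high library of pig 95R it was -0.53 and the call was lost (adjusted p = 0.0549). DLX4, its linked partner and not one of the 10, had 780 and 656 counts in LGR5-high and 673 and 653 in LGR5-negative, with a log2 fold change of -0.09 (95% interval -0.40 to 0.23, adjusted p = 0.603) that turned positive with upper quartile scaling or library size only. The log2 ratio of DLX3 to DLX4 was 2.68 and 2.40 in LGR5-high and 3.26 and 3.17 in LGR5-negative.

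DLX5, known for its roles in bone, limb and craniofacial development, had the largest decrease of the 10. It had 21.8 and 16.0 CPM in LGR5-negative cells and 7.42 and 5.24 CPM in LGR5-high cells. The populations were well apart, and pig 95R was lower than pig 88R in each, by 0.45 and 0.50 on the log2 scale. A log2 fold change of -1.58 (SE 0.240, adjusted p = 0.00395) was fitted, and the 2 pigs gave -1.55 and -1.60. Its linked partner DLX6 had at most 2 counts in any library, below the 3 counts taken as the smallest measurable signal, and was not tested. The log2 ratio of DLX2 to DLX5 counts was 2.55 and 2.84 in LGR5-high and -1.03 and -0.09 in LGR5-negative, so the proportion of these 2 DLX genes to each other shifted by 3.26 on the log2 scale.

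MSX1, a BMP-responsive factor known from tooth and craniofacial development, had the largest increase of the 10 and the lowest counts. Counts were 165 and 111 in the LGR5-high libraries (pig 88R first) and 34 and 33 in the LGR5-negative libraries, which is 4.80 and 3.36 CPM against 1.19 and 1.09 CPM. All 4 values were well above the measurable minimum, and the populations did not overlap. MSX1 rose by a log2 fold change of 1.83 (SE 0.299, adjusted p = 0.00502), from 1.95 for pig 88R and 1.57 for pig 95R. With log2 CPM and a pseudocount of 1, which pulls in the change of low genes, the difference was 1.23.

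MSX2 had 49.7 and 37.5 CPM in LGR5-high and 38.8 and 35.6 CPM in LGR5-negative. The LGR5-high library of pig 95R lay below the LGR5-negative library of pig 88R, so the populations overlapped. Its log2 fold change of 0.23 had a 95% interval from -0.15 to 0.61 (adjusted p = 0.269), and with the pig as a replicate block it was 0.22 (adjusted p = 0.105). A difference of up to 0.61 is thus within the error of these libraries. The log2 ratio of MSX1 to MSX2 was -3.37 and -3.48 in LGR5-high and -5.02 and -5.03 in LGR5-negative, so these 2 factors, which share many targets in other tissues, stood in a different proportion in the 2 populations.

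IRX3 had the lowest error of the 10 genes. It had 378 and 397 CPM in LGR5-negative cells of pigs 88R and 95R, and 194 and 201 CPM in LGR5-high cells. The 2 pigs agreed closely in each population while the populations differed by a factor of 1.96. IRX3 fell, with -0.97 on the log2 scale (SE 0.0784, adjusted p = 4.15e-04), with -0.96 and -0.98 in the 2 pigs. Leaving out any 1 library kept it between -1.02 and -0.95. In the annotation IRX3 overlaps LOC110261350, which had between 4 and 11 counts per library. The strand setting of the counting is not given in the sources used here, so reads of the stretch they share cannot be assigned.

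IRX5, a linked neighbour of IRX3, had 87.5 and 90.7 CPM in LGR5-high cells and 68.5 and 81.7 CPM in LGR5-negative cells, without overlap. Its difference on the log2 scale was 0.25 with a 95% interval of -0.02 to 0.51 (adjusted p = 0.110), and 0.35 and 0.15 in the 2 pigs. With the pig as a replicate block it was 0.25 (SE 0.0931, adjusted p = 0.0294) and passed, which brought the genes called to 8 of 10 (55.7% of all tested genes in that fit), with 5 higher (28.5%) and 3 lower (27.2%). It also passed with upper quartile scaling (log2 fold change 0.34) and with library size only (0.47). The log2 ratio of IRX5 to IRX3 was -1.15 in both LGR5-high libraries, and -2.46 and -2.28 in LGR5-negative. IRX6, the remaining gene of this cluster, had 7 and 23 counts in LGR5-high and 4 and 10 in LGR5-negative, too few for the test.

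IRX2 had 281 and 237 CPM in LGR5-high cells of pigs 88R and 95R and 158 and 115 CPM in LGR5-negative cells. Both LGR5-high libraries exceeded both LGR5-negative libraries, and pig 95R was the lower pig on either side. IRX2 rose by 0.93 on the log2 scale (SE 0.170, adjusted p = 0.00759), with 0.84 and 1.04 in the 2 pigs. IRX4, known from the heart ventricle, had 80.1 and 85.3 CPM in LGR5-high and 60.2 and 56.5 CPM in LGR5-negative. Its spread between pigs was small, and a log2 fold change of 0.50 (SE 0.0860, adjusted p = 0.00590) passed the test, with 0.41 and 0.60 in the 2 pigs.

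IRX1, the third gene of the IRX2 and IRX4 cluster, had 90.1 and 81.1 CPM in LGR5-high, and 91.4 and 62.7 CPM in LGR5-negative. The LGR5-negative library of pig 88R was the highest of the 4. The fitted difference was 0.15 on the log2 scale with a 95% interval of -0.30 to 0.60 (adjusted p = 0.526), while pig 88R gave -0.02 and pig 95R gave 0.37. Leaving out 1 LGR5-negative library decided its sign. Without that of pig 88R the log2 fold change was 0.44 and passed (adjusted p = 0.0394), and without that of pig 95R it was -0.10. The log2 ratio of IRX2 to IRX1 was 1.64 and 1.55 in LGR5-high, and 0.79 and 0.88 in LGR5-negative, and that of IRX4 to IRX1 overlapped between the populations.

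**Figure D2:**
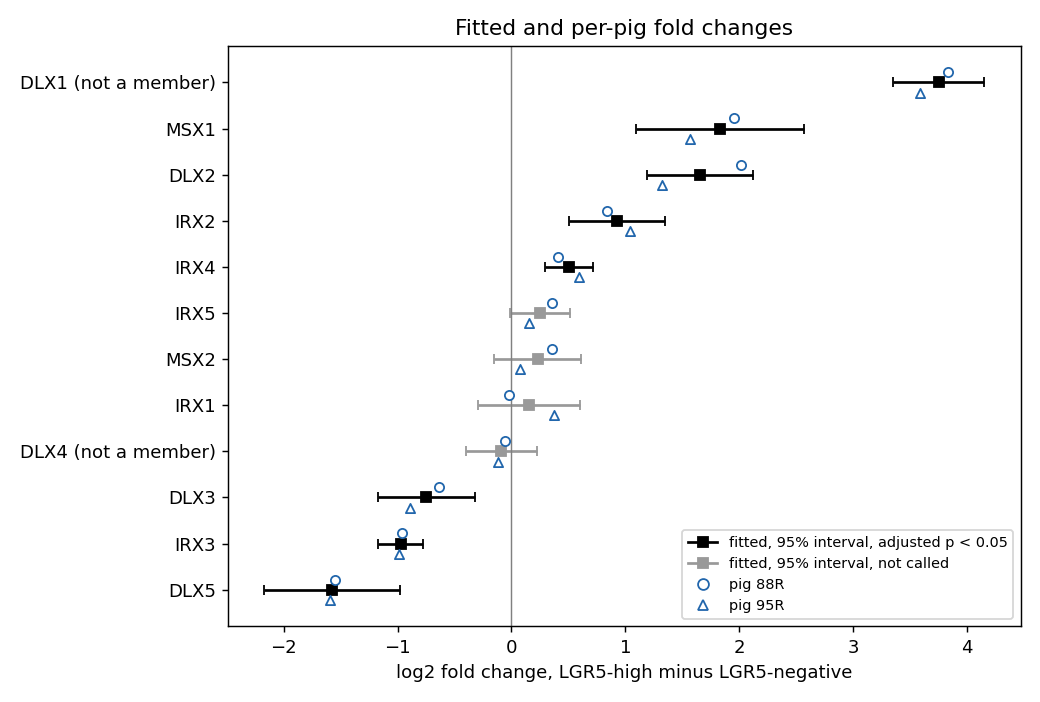
Log2 fold change (LGR5-high minus LGR5-negative) of the 10 genes and of DLX1 and DLX4, with squares for the fitted value, bars for its 95% interval, circles for pig 88R and triangles for pig 95R. Black squares passed an adjusted p-value under 0.05, from DLX5 at -1.58 to DLX1 at 3.75, and the grey squares of IRX5, MSX2, IRX1 and DLX4 have intervals that include 0.

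Ratios between genes of a family were formed for 11 pairs from the raw counts of each library. In 10 of them the populations did not overlap, beside 76.9% of all pairs of tested genes without a count of 0. IRX4 to IRX1 was the exception among the 11. The 11 pairs were picked, and other pairs within the families, such as IRX5 to IRX1, were not formed. The 10 are thus not a share of all pairs within the families. An exact permutation test of 2 against 2 libraries cannot give a 2-sided p below 0.333, so these ratios are descriptions. Among the 11 pairs the largest shift was that of DLX2 to DLX5, by 3.26 on the log2 scale, followed by DLX2 to DLX3 with 2.44. Between the 2 IRX clusters, the log2 ratio of IRX2 to IRX3 was 0.54 and 0.24 in LGR5-high and -1.26 and -1.79 in LGR5-negative.

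**Figure D3:**
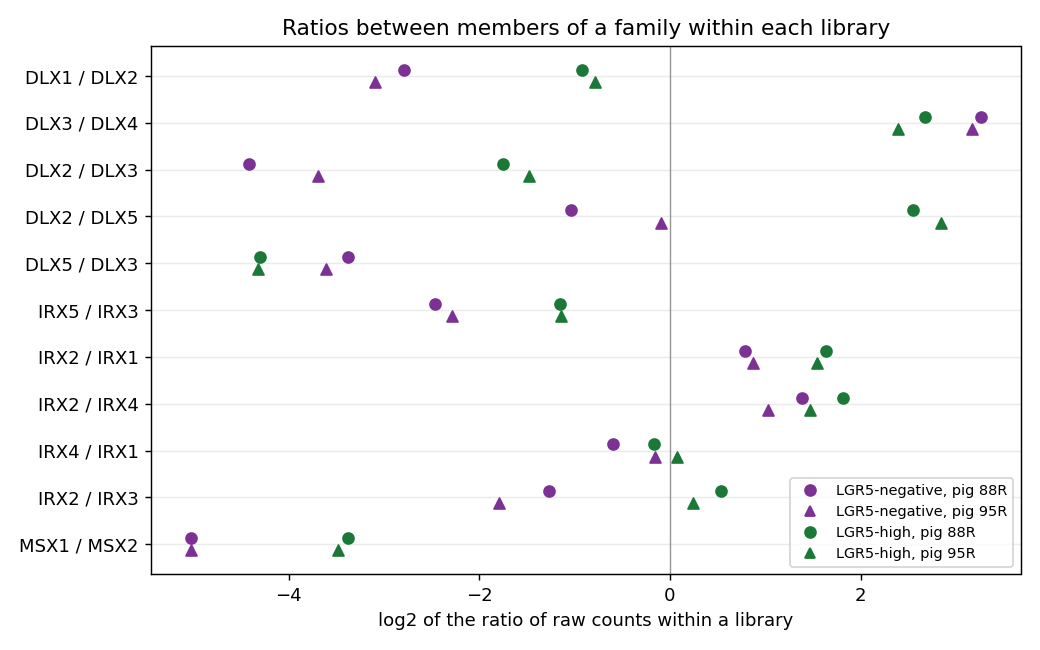
Log2 ratio of the raw counts of 2 genes within the same library, with purple for LGR5-negative, green for LGR5-high, circles for pig 88R and triangles for pig 95R. Purple and green points are apart in every row except IRX4 / IRX1, and the points of DLX2 / DLX5 lie farthest apart, with means that differ by 3.26.

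The 2 pigs differed for some of these genes beyond what most genes showed. The median absolute log2 difference between pigs over all tested genes was 0.16 in LGR5-high and 0.17 in LGR5-negative. In LGR5-high, pig 95R was lower than pig 88R by 0.51 for MSX1, by 0.50 for DLX5, by 0.48 for DLX3 and by 0.40 for MSX2. Between 13.7% and 19.1% of all tested genes had a larger difference than these genes. In LGR5-negative the largest differences were those of IRX1 (-0.54), DLX2 (0.49), IRX2 (-0.45) and DLX5 (-0.45). IRX3 and IRX4 differed between the pigs by less than 0.1 in either population. Each of the 7 called genes had the same sign in both pigs, as a call with so few libraries all but requires.

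The genes next to the members in the annotation were followed in the same fit, 2 on each side. C16H5orf38, an open reading frame gene beside IRX2, had 2235 and 2129 counts in LGR5-high and 433 and 383 in LGR5-negative, with a log2 fold change of 2.22 (adjusted p = 1.38e-04). It was thus higher in LGR5-high like IRX2, by a larger amount. The noncoding RNA gene LOC102165609, beside IRX5, had 1167 and 1264 counts against 484 and 722, a log2 fold change of 0.82 (adjusted p = 0.0148). On the side of IRX4, the noncoding RNA gene LOC110257282 was lower, with 83 and 90 counts against 136 and 170 and a log2 fold change of -1.02 (adjusted p = 0.0153), opposite to IRX4. FTO, which lies near IRX3, had a log2 fold change of 0.42 that did not pass (adjusted p = 0.0839). It passed with the pig as a replicate block (adjusted p = 0.0229), in the direction opposite to IRX3. Near DLX2, METAP1D was higher with 0.56 (adjusted p = 0.0233) and ITGA6 was lower with -0.94 (adjusted p = 0.00289), and ITGA3, near DLX3, had -0.03 (adjusted p = 0.817). Around MSX1 and MSX2, 7 of the 8 neighbours had at most 2 counts in any library, and STX18 beside MSX1 had -0.12 (adjusted p = 0.424).

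For each member the 3 tested genes with the most similar profile were found by the Euclidean distance between log2 CPM values, each gene centred on its own mean over the 4 libraries. The nearest gene to DLX5 was SOX21, a factor known from the hair shaft cuticle, at a distance of 0.03 and with a log2 fold change of -1.56. The nearest gene to MSX1 was HOXC13, a regulator of hair keratins, at 0.11 and with 1.77. The nearest to DLX2 was SNX10 at 0.05, to IRX2 MARCH10 at 0.04, to DLX3 EHD4 at 0.06 and to IRX3 ZFP36L1 at 0.02. With 4 libraries these distances describe the 4 values alone.

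Other homeobox genes outside the HOX clusters also went in both directions. Of 40 listed, 28 were tested, and 11 were higher and 8 lower, with a median of 0.29. Of all tested genes 22.7% were higher and 22% lower. Fewer of these genes, and fewer of all tested genes, were higher without the LGR5-high library of pig 95R. The largest increases were those of LHX2, a follicle stem cell factor, with 6.35, the TALE gene MEIS2 with 3.29 and PITX1 with 2.65. The largest decreases were those of EMX2 (-2.26), OTX1 (-2.16) and MKX (-1.97). The mesenchymal homeobox genes PRRX1 and PRRX2 had at most 10 counts and ALX4 at most 1 count in any library.

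Among 21 genes of the BMP and WNT pathways, 20 were tested, of which 8 were higher and 5 lower (median 0.25). The list holds known inputs to DLX and MSX genes together with the BMP targets ID1, ID2 and ID3. The shares over all tested genes were 22.7% higher and 22% lower. The ligand gene BMP2 fell with a log2 fold change of -2.80, the receptor gene BMPR1B with -1.07 and the ligand gene BMP7 with -0.86. The WNT effector genes TCF7L1, TCF7 and TCF7L2 rose with 2.80, 2.78 and 2.73, and CTNNB1 and LEF1 with 1.05 and 0.62. The WNT ligand gene WNT10A fell with -0.81 (adjusted p = 0.0135). WNT10B had 0.52 and was not called (adjusted p = 0.0722), but passed with the pig as a replicate block (adjusted p = 0.0125). The BMP antagonist gene GREM1 had 299 and 430 counts in LGR5-high and 1 and 4 counts in LGR5-negative. The BMP target genes divided, with ID3 and ID2 higher by 2.07 and 1.00 and ID1 lower (-0.71). BMP4, BMPR1A, BMPR2, SMAD1, SMAD4 and SMAD5 were not called, and BMPR2 (0.30, adjusted p = 0.0627) passed with the pig as a replicate block (adjusted p = 0.0237). With library size only, 13 genes of this list were higher and 4 lower, beside 5473 higher and 2326 lower among all 15980 tested.

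All 14 transcription factors listed for hair matrix and shaft were tested, with 5 higher, 7 lower and a median of -0.83. Beside them stand 22.7% higher and 22% lower of all tested genes. The list also holds factors that act in the epidermis, among them KLF4, GATA3 and TP63. Its median is thus not one of hair factors alone. FOXN1, which acts in the hair shaft, was higher with 0.64 (adjusted p = 0.00358), beside MSX2 at 0.23. HOXC13 rose with 1.77, TRPS1 with 1.50 and RUNX1 with 2.28. RUNX3 fell with -2.49, OVOL1 with -1.90, FOXQ1 with -1.63 and KLF4, a factor of the epidermal barrier, with -1.56. GATA3, a factor of the inner root sheath and a regulator of epidermal differentiation, was lower with -0.90, beside -0.75 for DLX3. TP63, the factor of stratified epithelium, had -0.17 (adjusted p = 0.135).

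Of the genes listed for hair shaft and inner root sheath, 18 were tested, with 6 higher, 6 lower and a median of -0.60. Among all tested genes 22.7% were higher and 22% lower. The inner root sheath genes TCHH, KRT27 and KRT25 rose with 4.00, 3.99 and 3.53. TGM3, the transglutaminase of hair and cornified cells, fell with -3.64, and the hair keratin genes KRT84 and KRT35 fell with -2.76 and -2.40. Reads shared between related keratin genes may be divided among them, and how they were counted is not given in the sources used here.

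**Figure D4:**
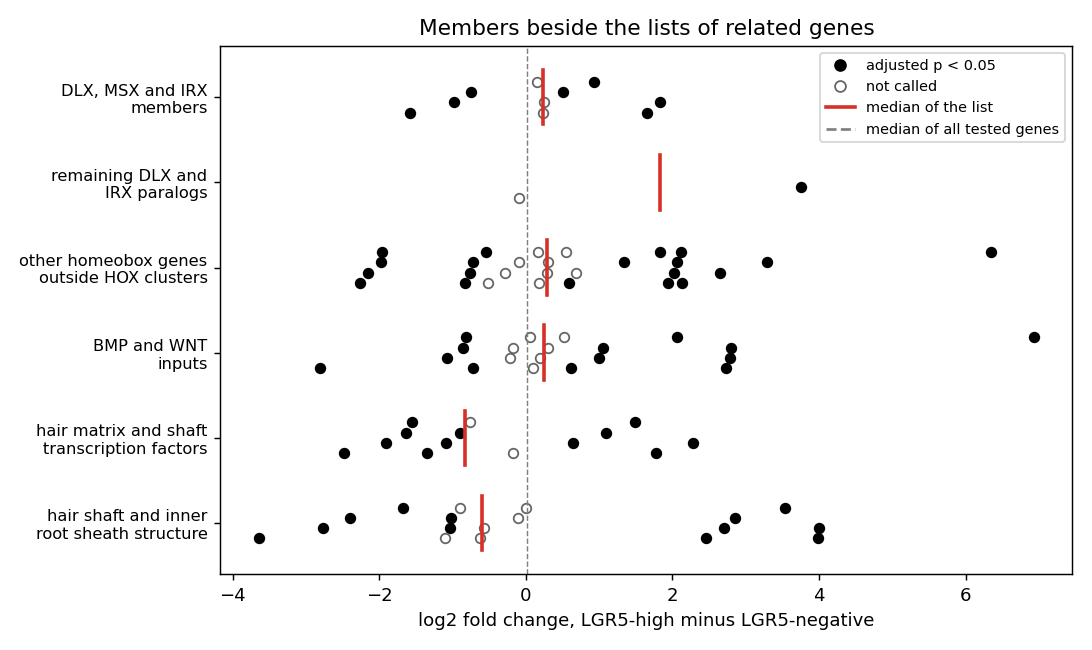
Log2 fold change (LGR5-high minus LGR5-negative) of each tested gene in the lists of related genes, with filled points for an adjusted p-value under 0.05, red lines for the median of each list and a dashed line for the median of all tested genes. Every list except the remaining paralogs holds filled points on both sides of 0. The median lies at 0.24 for the 10 members and at -0.83 for the list of hair matrix and shaft factors, which also holds epidermal factors.

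Across all other settings and left-out libraries, the 10 genes gave 150 further values, of which 131 kept their direction and their side of the threshold. The call was lost in 14, gained in 4, and the direction turned in 1, which is IRX1. The lost calls came from the t-test and from Bonferroni adjustment, apart from the DLX3 value above. Part of the 131 was fixed in advance. Fitting with a prior count of 2 leaves the p-values as they are. Bonferroni adjustment keeps the fold changes and cannot add a call. The same share over all tested genes was not formed. At an unadjusted p under 0.05 edgeR had 4 of the 10 genes higher and 3 lower, beside 27.2% and 26.2% of all tested genes, and the t-test had 3 higher and 2 lower, beside 20.4% and 19.6%. The directions of the 7 called genes were the same under each scaling between libraries. Scaling by library size only moved the median of all tested genes by 0.22, to 0.24, and gave 0.45 for MSX2 and 0.38 for IRX1.

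**Figure D5:**
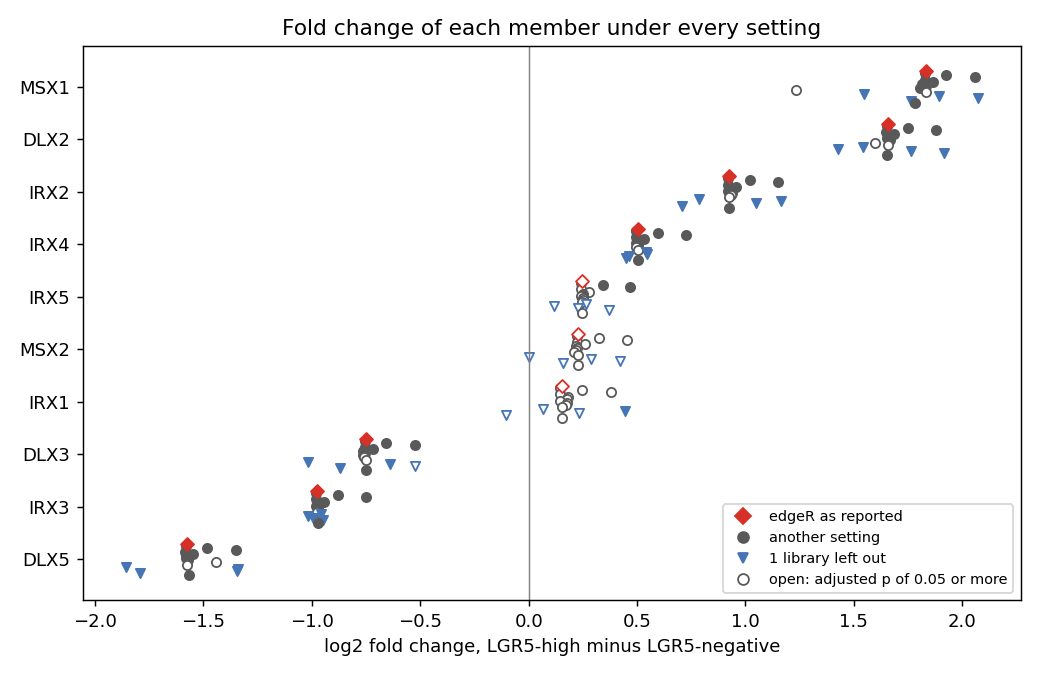
Log2 fold change of each member as reported (red diamonds), under other settings (grey circles) and with 1 library left out (blue triangles), where open symbols have an adjusted p-value of 0.05 or more. DLX2, MSX1, IRX2 and IRX4 stay right of 0 and DLX3, DLX5 and IRX3 left of 0, and of the 10 genes IRX1 alone has a point across 0, at -0.10.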

How the data were processed

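The 4 libraries were made from poly(A) RNA and read from both ends. The deposited values are raw counts per symbol, 1 column per library, which the authors did not normalize. The submitters' processing notes name Trimmomatic 0.36, STAR 2.5.2b and featureCounts of Subread 1.5.2. The genome build, annotation and strand setting are not given in the sources used here. All 29837 symbols were found in RefSeq for Sscrofa11.1, from which only names and the order of genes were taken. An entry without a name, with 0.360% to 0.626% of the counts of a library, was left out.

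The test was the quasi-likelihood F-test of edgeR 4.0.16 (R 4.3.3) on the counts, 2-sided, with TMM scaling and no term beside the population. The edgeR function filterByExpr (minimum count 10, minimum total 15) left 15980 genes, and Benjamini-Hochberg adjustment covered all of them. An adjusted p under 0.05 was a call. Fitted fold changes used a prior count of 0.125 and per-pig values a prior count of 2. A standard error is the fitted log2 fold change divided by the square root of F. Counts and floors cover counting error only. Both populations came from each pig, and the deviations of same-pig libraries from their population means had a correlation of 0.370 across genes, so the pig as a replicate block was an alternative. The study's methods name a t-test, which was run as an alternative with a pseudocount of 1. DESeq2 1.42.0 and limma-voom (limma 3.58.1) were others. The script was tested on simulated data. The members and lists were chosen with earlier results of these data known. All members are named, with list genes of the 3 largest and 3 smallest changes, or on which a result turns, and annotated neighbours. TCF7L2, ID1, ID2, ID3, FOXN1, GATA3, KLF4, TP63, KRT15, PRRX1, PRRX2, ALX4 and the uncalled BMP genes were added after their values were seen. So were CTNNB1, LEF1, WNT10A and WNT10B. Genes not matched by symbol were not analysed here. Plots were drawn with matplotlib 3.10.9.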

Additional observations from a re-analysis of the deposited data

How the results depend on the processing

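With the pig as a replicate block, whose pairing is that of the animal, 5 members were higher and 3 lower, and IRX5 was the member whose call changed. Scaling by library size only called 5473 genes higher (70.2% of calls) and 2326 lower, against 3632 (50.9%) and 3508 with TMM. The t-test on log2 CPM called 0 members higher and 1 lower (IRX3, adjusted p = 0.0460), with 3 and 2 members at an unadjusted p under 0.05, and called 544 and 502 genes. It called 2 and 0 of the BMP and WNT genes. With Bonferroni adjustment edgeR called 0 members in either direction (4 and 3 at an unadjusted p under 0.05), and 194 and 130 genes. The t-test and Bonferroni adjustment moved every count of higher or lower genes in the lists of other homeobox, BMP and WNT, and hair genes by over 1.5 times. Leaving out 1 library gave 4 to 5 members higher and 2 to 3 lower, and 2279 to 3169 genes higher and 2139 to 3004 lower, the fewest without the LGR5-high library of pig 95R; the remaining library of a population was then assumed to vary like the other population. Over the left-out libraries IRX1 had a log2 fold change of -0.10 to 0.44, lowest without the LGR5-negative library of pig 95R, and DLX4 one of -0.20 to 0.0099, highest without the LGR5-high library of pig 95R. DLX4 had 0.0064 with upper quartile scaling and 0.14 with library size only. The cause of these shifts was not tested.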
